A study of Mus musculus with 6 samples.

Results

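The 42 genes described here encode the machinery that copies DNA in S phase: origin licensing factors, the replicative helicase and its activators, the sliding clamp and clamp loader, the replicative polymerases, the enzymes of lagging-strand processing, the enzymes that supply deoxynucleotides, S phase transcription regulators and the chromatin assembly factors that follow the fork. Their rows were found by gene symbol, and all 42 were present among the 46078 genes of the count tables. RNA sequencing was done on small-intestinal adenomas of ApcMin/+ mice, which carry a germline nonsense allele of the tumor suppressor Apc and develop intestinal adenomas. The knockout group had the genotype miR-34a/b/c-/-;ApcMin/+ and lacked the Mir34a and Mir34b/c microRNA genes, and the wild-type group had the genotype miR-34a/b/c+/+;ApcMin/+, so that the Apc allele was shared by both groups. All mice were C57BL6/SV129 and 18 weeks of age. Each group had 3 libraries, each made from a pool of 3 tumors of 1 mouse. The spread between libraries of a group therefore mixes differences between mice, tumor pools and library preparations. These cannot be told apart, and neither can single tumors. Whole tumor tissue was used, and in such bulk samples fewer cells of a type and less RNA per cell cannot be told apart.

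Before S phase, the origin recognition complex, CDC6 and CDT1 load the MCM2-7 ring onto DNA as an inactive helicase. In S phase, CDC45 and the GINS complex join MCM2-7 and open the fork, polymerase alpha-primase lays down primers, replication factor C loads the PCNA clamp, and polymerases delta and epsilon extend the strands. Transcription of many of these genes is driven by E2F factors, which the retinoblastoma protein holds back until cyclin E-CDK2 and related kinases release them. The miR-34 family is induced by p53, and several cell cycle genes, E2F family members among them, have been described as its targets in other systems. In the intestine, replicating cells lie in the crypts and throughout adenomas.

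Library totals were between 26375035 and 38354355 counts, and the 6 libraries differed from each other far beyond sampling noise. The rows of Mir34a, Mir34b and Mir34c held 0 counts in every library of both groups, so they do not check the genotype labels. The 10 epithelial genes read here (Epcam, Cdh1, Krt8 and others) summed to between 12237 and 18527 CPM in a library. CPM is a gene's count scaled to a library's normalised total. The 8 Wnt target genes of adenomas (Axin2, Lgr5, Notum and others) had counts in every library. There was no library of normal intestine, so these levels do not check the adenoma label.

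None of the 42 replication genes differed between knockout and wild-type adenomas past an adjusted p of 0.05 (edgeR quasi-likelihood test, adjusted over 17254 genes; the lowest adjusted p of a member was 0.793). DESeq2 and limma-voom also called 0 members, with lowest adjusted p of 0.631 and 0.767 and with 1 and 0 members at an unadjusted p under 0.05. Over all genes tested, 0.0927% passed in either direction and 0.0406% were called higher in the knockout. At an unadjusted p under 0.05, 1 of the 42 genes (2.38%) was counted, Cdc45, which was higher in the knockout, against 5.85% of all genes in either direction and 3.27% higher in the knockout. Fitted log2 fold changes, knockout over wild-type, were above 0 for 36 of the 42 genes, against 51.1% of all genes, and the median over the 42 genes was 0.13, against 0.0073 over all genes tested. The 6 genes below 0 were Mcm10, Gins1, Gins4, Pcna, Tk1 and E2f2. Scaling libraries by their totals alone raised the median of all genes to 0.077. It also turned the first 4 of these 6 genes above 0, which left 40 of 42 above 0. This is a description of a list whose members share libraries, not a test. The fold changes were small: they ran from -0.22 (E2f2) to 0.66 (Cdc45), and the 95% interval lay within 2-fold in both directions for 41 of the 42 genes, all but Cdc45, and within 1.5-fold for 24. The lowest bound of any interval was 0.665-fold (E2f2) and the highest 2.46-fold (Cdc45). The 6 libraries separated by group for 4 of the 42 genes (9.52%), Gins3, Pola2, Pold1 and Rrm2, each with every knockout library above every wild-type library; over all genes tested 11.2% separated in either direction and 5.86% with the knockout above.

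**Figure D1:**
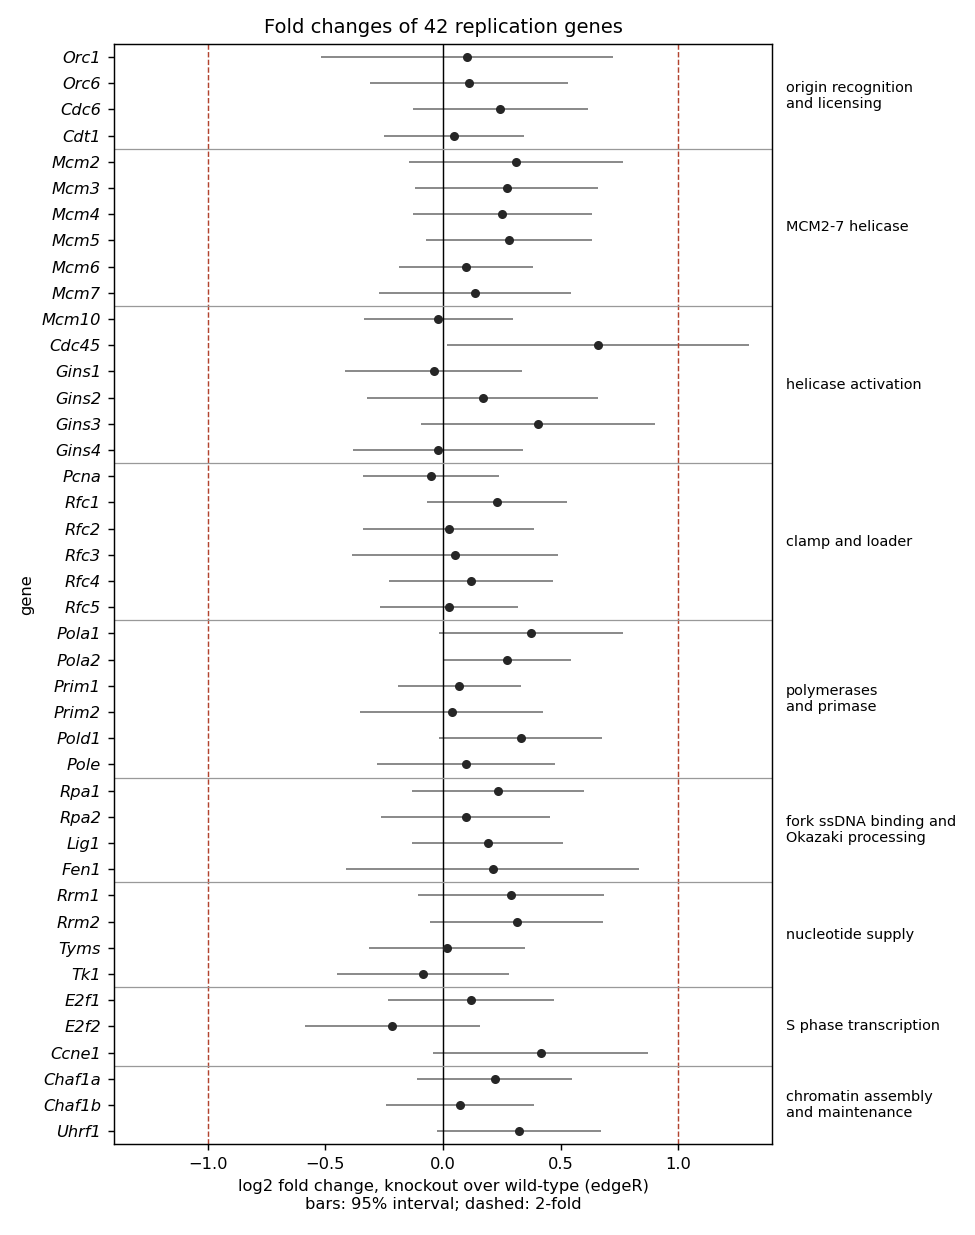
Log2 fold changes, knockout over wild-type, of the 42 replication genes in their role groups (points) with 95% intervals (bars) and dashed lines at 2-fold. Of the 42 points, 36 lie right of 0, and the interval of Cdc45 is the only one that passes 2-fold.

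The knockout removes the microRNAs themselves, so the members were searched for sites that pair with them. The mature miR-34a-5p (RefSeq, GRCm38.p6, chr4:150068473-150068494 on the plus strand) and miR-34b-5p (chr9:51103610-51103632 on the minus strand) share the seed at bases 2 to 8, given in capitals; miR-34c-5p belongs to the same family.
miR-34a-5p: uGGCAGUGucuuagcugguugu
miR-34b-5p: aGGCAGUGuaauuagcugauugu
A 7-base match to the seed, CACTGCC on the strand of the transcript, stood in the longest annotated 3′ UTR of 8 of the 42 genes (19.05%) and of 16.7% of 14693 tested genes with an annotated 3′ UTR. These were Mcm5, Cdc6, Gins2, Rfc1, Rfc2, Rfc5 (2 sites), Rpa2 and E2f2. An 8-base match, which adds an A opposite base 1 of the microRNA (CACTGCCA), stood in Mcm5, Rfc2 and Rpa2, 7.14% of the members and 5.77% of the tested genes. The shares were not adjusted for UTR length, so they do not compare the density of sites. The median length was 674 bases for the members and 1141 bases for the tested genes. The 8-base sites are shown as the longest matches, and the E2f2 site because E2f2 had the lowest fold change of the members; capitals mark the match.
Mcm5: cccgggccactCACTGCCAagcttctttgt
Rfc2: tgtcagacgagCACTGCCAgctgggctaca
Rpa2: tgaaagaggaaCACTGCCAagatgtcaggg
E2f2: gggaaagggctCACTGCCtccttctgagg
On GRCm38 they lie at chr8:75127602-75127631 on the plus strand (Mcm5), chr5:134598172-134598201 on the plus strand (Rfc2), chr4:132778154-132778183 on the plus strand (Rpa2) and chr4:136193283-136193311 on the plus strand (E2f2). The log2 fold changes of these 4 genes were 0.28, 0.023, 0.10 and -0.22, none past the threshold. On the log2 scale the median fold change was 0.13 over the 8 genes with a match and also 0.13 over the 34 without one. A match describes the letters of the longest UTR and does not show that the site is used.

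The promoters were searched for E2F motifs because E2F factors drive many of these genes. The 8-base forms TTTCCCGC, TTTCGCGC, TTTGCCGC and TTTGGCGC were searched on both strands from 250 bases before to 50 bases after each start in RefSeq (GRCm38.p6), and a promoter with several or overlapping matches was counted once. Of 35 members with a promoter entry, 14 (40.0%) held at least 1 form, against 4.23% of 12174 tested genes with an entry and 2.26% of all 32851 promoters of this length. With the first T of each form left off, which gives its 7-base core, the share was 65.7% of members, 17.9% of tested genes and 9.57% of all promoters. The windows of 6 members, from 4 role groups, are shown in the orientation of the gene, and the capitals spell 1 form or its reverse complement.
Mcm5: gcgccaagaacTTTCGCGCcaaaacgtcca
Mcm6: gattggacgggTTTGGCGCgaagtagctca
Cdc6: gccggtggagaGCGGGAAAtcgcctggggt
Orc1: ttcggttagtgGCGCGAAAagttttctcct
Gins3: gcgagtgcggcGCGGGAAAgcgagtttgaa
Pola1: gtcatcacaggGCGCCAAAtgcactcccgc
They lie at chr8:75109345-75109374 on the plus strand (Mcm5), chr1:128359734-128359763 on the minus strand (Mcm6), chr11:98908002-98908031 on the plus strand (Cdc6), chr4:108579416-108579445 on the plus strand (Orc1), chr8:95633507-95633536 on the plus strand (Gins3) and chrX:93632275-93632304 on the minus strand (Pola1). In Mcm5 a second form, TTTGGCGC on the opposite strand, overlaps the capitals, and Mcm6 held 3 matches in its promoter, to 2 of the forms. Of the 14 members with a form 13 were above 0 in fold change (median 0.22 on the log2 scale), and the 21 with an entry and no form had a median of 0.12, with 18 above 0. No gene of either set passed the threshold, and the difference between the sets was not tested.

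The 1 gene counted at an unadjusted p under 0.05 was Cdc45 (ENSMUSG00000000028, chr16:18780447-18811987, minus strand, in mm10 like the other gene positions), which joins MCM2-7 and GINS to form the active helicase. It had 38.6, 20.97 and 31.2 CPM in knockout replicates 1, 2 and 3 and 17.5, 15.2 and 24.7 CPM in wild-type replicates 1, 2 and 3, and values of further genes are given in the same order of replicates. Knockout replicates 1 and 3 were above all wild-type libraries, while knockout replicate 2 lay below wild-type replicate 3, so that the groups overlapped (log2 fold change 0.66 ± 0.27, edgeR adjusted p = 0.793, unadjusted p = 0.0459, n = 3 each). Over the fits that left out 1 library its log2 fold change ran from 0.44, without knockout replicate 1, to 0.89, and the unadjusted p was under 0.05 only without knockout replicate 2 (0.0059) or wild-type replicate 3 (0.019); in the other 4 it was between 0.1005 and 0.166. An exon of Cdc45 overlaps Ufd1 on the other strand, and its values are uncertain because the sources used here do not say whether counting used strand.

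The helicase activation group, Mcm10, Cdc45 and the 4 GINS subunits, had 3 of 6 fold changes above 0 and none past the threshold, and the median on the log2 scale was 0.074. That median was -0.011 without knockout replicate 1, and 5 of 6 genes were above 0 without knockout replicate 2 or without wild-type replicate 2. Gins3 (ENSMUSG00000031669, chr8:95633559-95645059, plus strand), a subunit of GINS, was 1 of the 4 genes whose groups did not overlap, with 7.44, 6.21 and 7.22 CPM in the knockout and 4.75, 6.04 and 4.98 CPM in the wild-type libraries (log2 fold change 0.40 ± 0.21, edgeR adjusted p = 0.793). Its levels were low, and the lowest knockout library exceeded the highest wild-type library by less than the spread within either group. The other GINS subunits were near no change: Gins1 -0.040, Gins2 0.17 and Gins4 -0.020 on the log2 scale. Gins4, which had the highest level per kb of the group, had 27.7, 22.1 and 23.8 CPM in the knockout and 25.4, 27.8 and 21.4 CPM in the wild-type libraries (log2 fold change -0.020 ± 0.15, edgeR adjusted p = 0.982), with the ranges of the groups overlapping. Mcm10, which helps the helicase start, had a log2 fold change of -0.021, with knockout replicate 2 highest and knockout replicate 3 lowest.

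The MCM2-7 ring, the core of the helicase, had fold changes above 0 for all 6 genes, from 0.096 (Mcm6) to 0.31 (Mcm2), with a median of 0.26, and none passed the threshold. Without knockout replicate 1 the median was 0.13 and 5 of 6 were above 0. Mcm5 (ENSMUSG00000005410, chr8:75109528-75128439, plus strand), the MCM gene with the smallest unadjusted p, had 109, 78.98 and 88.2 CPM in the knockout and 83.1, 73.2 and 71.1 CPM in the wild-type libraries (log2 fold change 0.28 ± 0.15, edgeR adjusted p = 0.794). Knockout replicate 1 was the highest library for each of the 6 genes. Knockout replicate 2 was inside the wild-type range for Mcm2, Mcm3, Mcm4, Mcm5 and Mcm6 and below it for Mcm7. Mcm6, the most abundant gene of the ring per kb, had 133, 113 and 122 CPM in the knockout and 125, 108 and 111 CPM in the wild-type libraries (log2 fold change 0.10 ± 0.12, edgeR adjusted p = 0.867). Mcm7, whose gene holds the Mir25, Mir93 and Mir106b hairpins (0, 0 and 2 counts over all libraries), had a log2 fold change of 0.14, and its exons overlap Cops6 and Ap4m1 on the other strand.

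The origin recognition and licensing genes, which load the ring, were above 0 in fold change for 4 of 4, none past the threshold, and their median was 0.10 on the log2 scale. That direction rested on knockout replicate 1: without it 1 of 4 was above 0, Cdc6, and the median was -0.052. Cdc6, the ATPase that brings MCM2-7 to the origin, had 24.2, 20.5 and 20.5 CPM in the knockout and 20.8, 18.7 and 15.6 CPM in the wild-type libraries (log2 fold change 0.24 ± 0.16, edgeR adjusted p = 0.807). Wild-type replicate 1 lay above knockout replicates 2 and 3, so the groups overlapped. Orc6, a subunit of the origin recognition complex and the most abundant of the group per kb of principal transcript, had 27.8, 18.3 and 21.3 CPM in the knockout and 22.3, 20.5 and 19.7 CPM in the wild-type libraries (log2 fold change 0.11 ± 0.18, edgeR adjusted p = 0.897), with knockout replicate 2 the lowest library. Orc1 and Cdt1 had log2 fold changes of 0.10 and 0.046.

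The replicative polymerases and primase had fold changes above 0 for all 6 genes (median 0.18), and 2 of the 4 members whose groups did not overlap were among them. Without knockout replicate 1 the median was 0.15 with 5 of 6 above 0, and without knockout replicate 3 it was 0.16 with 4 of 6 above 0. The lowest median of these fits was 0.13, without wild-type replicate 3, with 6 of 6 above 0. Pola2 (ENSMUSG00000024833, chr19:5940543-5964206, minus strand), the accessory subunit of polymerase alpha, had 35.5, 30.8 and 32.4 CPM in the knockout and 29.1, 26.6 and 26.1 CPM in the wild-type libraries (log2 fold change 0.27 ± 0.12, edgeR adjusted p = 0.793, unadjusted p = 0.0503). Its highest wild-type library was 29.1 CPM and its lowest knockout library 30.8 CPM. Pold1 (ENSMUSG00000038644, chr7:44532746-44548849, minus strand), the catalytic subunit of polymerase delta, had 40.3, 40.6 and 36.2 CPM in the knockout and 34.4, 33.4 and 25.4 CPM in the wild-type libraries (log2 fold change 0.33 ± 0.15, edgeR adjusted p = 0.793), with wild-type replicate 3 well below the other 5 libraries. Pola1, the catalytic subunit of polymerase alpha, had a log2 fold change of 0.37 and overlapping groups. Prim1, the catalytic primase subunit and the most abundant of the group per kb of principal transcript, varied little between libraries, with 27.5, 25.2 and 27.05 CPM in the knockout and 26.2, 25.6 and 24.2 CPM in the wild-type libraries (log2 fold change 0.070 ± 0.11, edgeR adjusted p = 0.896). Prim2 and Pole, the large primase subunit and the catalytic subunit of polymerase epsilon, had log2 fold changes of 0.038 and 0.10.

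The clamp and clamp loader genes had a median of 0.037 on the log2 scale, with 5 of 6 above 0 and none past the threshold. Without knockout replicate 1 the median was -0.063 with 2 of 6 above 0, and without wild-type replicate 3 it was 0.0095 with 3 of 6 above 0. Rfc1, the large subunit of the loader, had the smallest unadjusted p of the group, with 78.5, 66.2 and 77.5 CPM in the knockout and 70.3, 60.3 and 58.9 CPM in the wild-type libraries (log2 fold change 0.23 ± 0.13, edgeR adjusted p = 0.801). The 4 small subunits Rfc2, Rfc3, Rfc4 and Rfc5 had log2 fold changes from 0.023 to 0.12. Rfc2, Rfc4 and Rfc5 overlap Lat2, Eif4a2 and Wsb2 on the other strand and are uncertain in the same way as Cdc45.

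Pcna, the sliding clamp, has a near-identical processed copy in the genome, Pcna-ps2, so its row was read together with those of Pcna-ps2 and Pcna-ps1. Pcna had 117, 94.1 and 101 CPM in the knockout and 105, 105 and 113 CPM in the wild-type libraries, with overlapping groups. The log2 fold change of Pcna was -0.051 ± 0.12 (edgeR adjusted p = 0.932). The copy Pcna-ps2 (chr19:9283238-9284494 in the deposited coordinates, GRCm38 annotation, 99.2% identical to Pcna over 781 bases) was counted 232, 179 and 224 times in knockout replicates 1, 2 and 3 but 9, 2 and 6 times in wild-type replicates 1, 2 and 3, with no overlap (log2 fold change 5.22 ± 0.50, edgeR adjusted p = 0.0200). That call is 1 of the 16 of the whole table, and it did not pass in the 4 fits that left out knockout replicate 1, knockout replicate 3, wild-type replicate 2 and wild-type replicate 3 (edgeR adjusted p between 0.0505 and 0.122). Pcna-ps1 had 0 counts in every library. With the counts of Pcna and its copies summed, the log2 fold change was 0.034 with an adjusted p of 0.960, above 0 where Pcna alone was below it, so the sign of Pcna is not settled. Reads that match Pcna and Pcna-ps2 equally well cannot be told apart, and the sources used here do not say how such reads were counted. The same limit holds for Uhrf1, Cdc6, Rfc5 and Tk1, which also have near-identical processed pseudogenes elsewhere. These are Gm5648, Gm9430, Gm12870 and Gm6091, with 6, 1, 27 and 0 counts over all libraries.

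The genes of fork protection and Okazaki fragment processing were above 0 for 4 of 4, with a median of 0.20 on the log2 scale and none past the threshold. Without knockout replicate 1 the median was 0.066 with 3 of 4 above 0. Rpa1, the large subunit of the single-strand binding protein RPA, had 98.97, 67.9 and 82.4 CPM in the knockout and 75.3, 67.05 and 69.7 CPM in the wild-type libraries (log2 fold change 0.23 ± 0.16, edgeR adjusted p = 0.810). Lig1, the ligase that joins Okazaki fragments and the most abundant of the group per kb, had 91.6, 67.8 and 79.7 CPM in the knockout and 73.8, 68.8 and 67.1 CPM in the wild-type libraries (log2 fold change 0.19 ± 0.14, edgeR adjusted p = 0.813). For both genes knockout replicate 1 was highest by a margin and knockout replicate 2 was inside the wild-type range. Rpa2 and Fen1, the flap nuclease, had log2 fold changes of 0.10 and 0.21. Fen1 and Lig1 overlap Tmem258 and Zswim9 on the other strand, and Fen1 also overlaps Gm10143 there.

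Of the nucleotide supply genes, Rrm1, Rrm2 and Tyms had fold changes above 0 and Tk1 below 0 (-0.086), with a median of 0.15, or of 0.039 with 2 of 4 above 0 without knockout replicate 1. Rrm2 (ENSMUSG00000020649, chr12:24708241-24714146, plus strand), the small subunit of ribonucleotide reductase that makes deoxynucleotides, had 89.3, 65.1 and 66.8 CPM in the knockout and 59.96, 53.7 and 64.3 CPM in the wild-type libraries (log2 fold change 0.31 ± 0.16, edgeR adjusted p = 0.793). Every knockout library was above every wild-type library, though knockout replicate 2 and wild-type replicate 3 were close. Rrm1, the large subunit, had a log2 fold change of 0.29, and Tyms, which makes thymidylate, one of 0.016.

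Among the S phase transcription genes, E2f2 and Ccne1 had fold changes of opposite sign. E2f2 (ENSMUSG00000018983, chr4:136172394-136196057, plus strand), an activator E2F, had 27.00, 38.1 and 36.6 CPM in the knockout and 36.5, 38.7 and 42.9 CPM in the wild-type libraries (log2 fold change -0.22 ± 0.16, edgeR adjusted p = 0.813). Wild-type replicate 3 was highest, the groups overlapped, and E2f2 was the 1 member for which knockout replicate 1 was the lowest library. Ccne1, cyclin E1, which activates CDK2 at the start of S phase, had 21.99, 15.6 and 19.6 CPM in the knockout and 16.4, 14.6 and 11.9 CPM in the wild-type libraries (log2 fold change 0.41 ± 0.19, edgeR adjusted p = 0.793), with wild-type replicate 1 above knockout replicate 2. E2f1 had a log2 fold change of 0.12.

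The chromatin genes had fold changes above 0 for 3 of 3 members, with a median of 0.22. Uhrf1, which brings the maintenance methyltransferase to newly copied DNA, had 86.5, 66.3 and 85.1 CPM in the knockout and 71.2, 58.3 and 60.7 CPM in the wild-type libraries (log2 fold change 0.32 ± 0.15, edgeR adjusted p = 0.793). Knockout replicates 1 and 3 were above all wild-type libraries and knockout replicate 2 was below wild-type replicate 1. Chaf1a and Chaf1b, subunits of the histone chaperone CAF-1, had log2 fold changes of 0.22 and 0.072. Ubxn6 overlaps Chaf1a on the other strand.

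**Figure D2:**
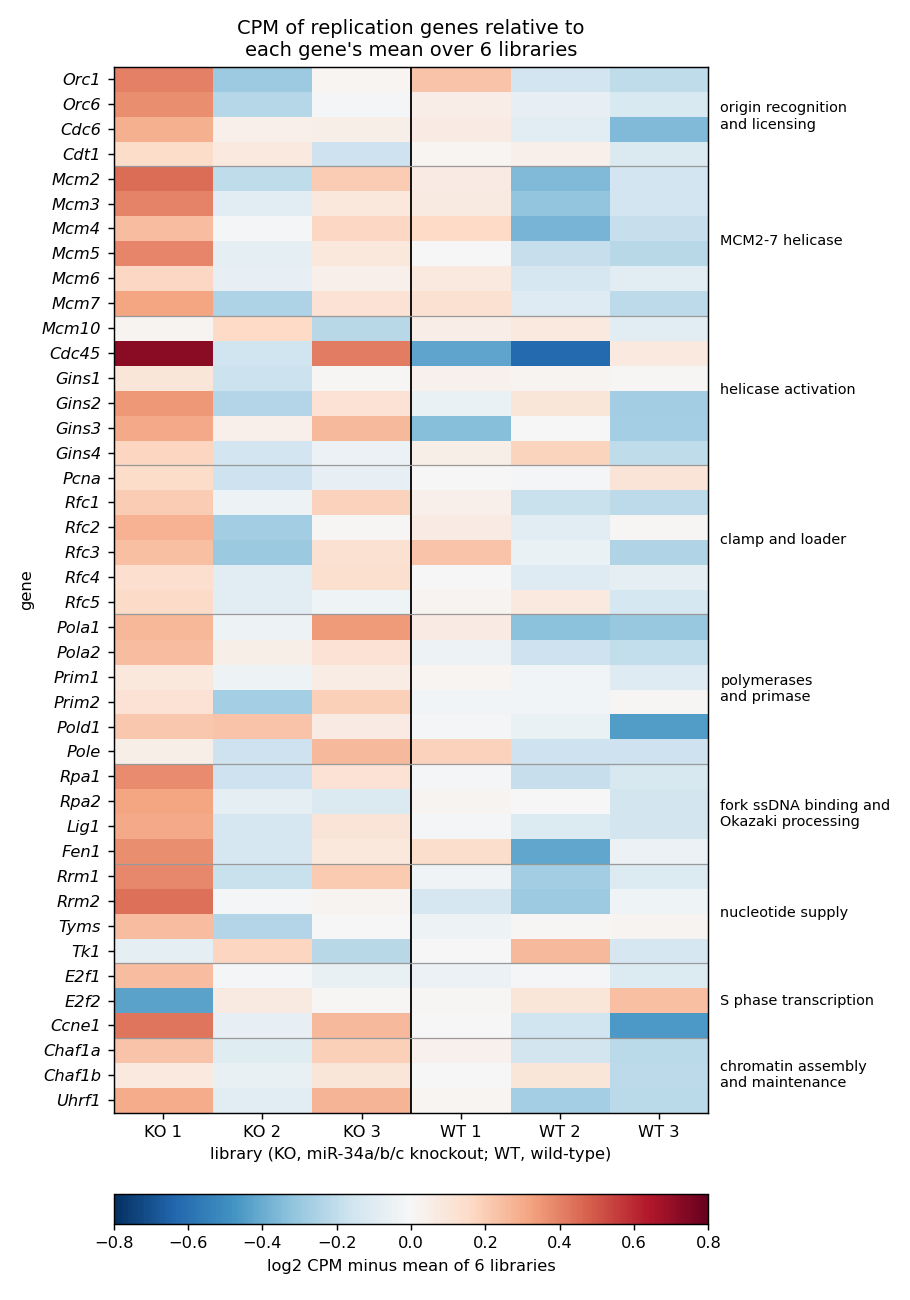
Log2 CPM of each replication gene in each library, less the gene's mean over the 6 libraries (red above, blue below), in role groups; KO is knockout and WT wild-type. The knockout replicate 1 column is the reddest: it holds the highest value of 33 of the 42 genes.

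The libraries of the knockout group differed among themselves for these genes. Knockout replicate 1 had the highest CPM for 33 of the 42 genes (78.6%; it was the highest library for 20.2% of all genes tested), while the lowest value was in wild-type replicate 3 for 15 genes, in wild-type replicate 2 for 12 and in knockout replicate 2 for 10. A score was formed as the mean over the 42 genes of log2 CPM (with a prior count of 2) less each gene's mean over the 6 libraries. The scores were 0.24, -0.090 and 0.082 in knockout replicates 1, 2 and 3 and 0.016, -0.11 and -0.14 in wild-type replicates 1, 2 and 3. Knockout replicates 1 and 3 were above every wild-type library, and knockout replicate 2 was within the wild-type range. Summed over the 42 genes, CPM was 2206, 1717 and 1956 in knockout replicates 1, 2 and 3 and 1871, 1671 and 1680.2 in wild-type replicates 1, 2 and 3, and the 2 groups' ranges overlapped. Mitochondrial genes took 2.89%, 4.18% and 2.31% of counts in knockout replicates 1, 2 and 3 and 2.98%, 4.005% and 3.08% in wild-type replicates 1, 2 and 3 (95% Wilson intervals of at most 0.0068 points to either side, for counting error only). The share was highest in knockout replicate 2 and wild-type replicate 2, which had replication scores below 0, and low in knockout replicates 1 and 3, which had the highest scores. Wild-type replicate 3 departed from this order, with the lowest score (-0.14) and a share of 3.08%. Wild-type replicate 1 had a share close to that of knockout replicate 1 (2.98% and 2.89%) but a lower score (0.016 and 0.24). The part of the mitochondrial share in the result was not tested. Without knockout replicate 1, 26 of the 42 fold changes were above 0 and the median was 0.054. Without knockout replicate 2, 39 were above 0, the median was 0.26, and 14 genes (33.3%, against 17.9% of all genes in that fit) had an unadjusted p under 0.05, Cdc45, Uhrf1 and Rrm1 with the 3 smallest. The lowest edgeR adjusted p of a member in that fit was 0.156, and it ran from 0.156 to 1.00 over the alternatives.

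**Figure D3:**
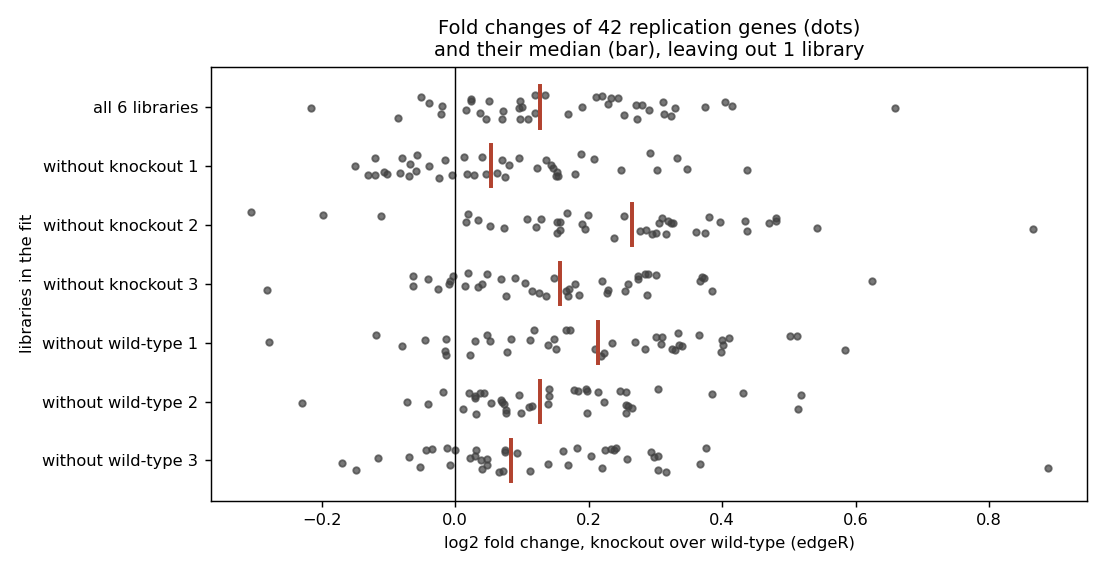
Log2 fold changes of the 42 replication genes (dots) and their median (bars) with all 6 libraries and with each library left out. The median is 0.13 with all libraries, 0.054 without knockout replicate 1 and 0.26 without knockout replicate 2.

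Genes of neighbouring parts of the cell cycle were read in the same way. Of 50 other replication genes, 0 passed the threshold, 40 had fold changes above 0 (median 0.16), 5 (10%, against 3.27% of all genes) had an unadjusted p under 0.05 and were higher in the knockout, and 14 (28.0%, against 5.86% of all genes) separated by group with every knockout library above. Those with the 3 smallest p were Clspn, Dnmt1 and Rrm2b. Clspn, which links the fork to the checkpoint kinase CHK1, had 30.3, 27.5 and 28.3 CPM in the knockout and 25.1, 21.1 and 20.3 CPM in the wild-type libraries (log2 fold change 0.37 ± 0.13, edgeR adjusted p = 0.793). Dnmt1, the maintenance methyltransferase, had 122, 111 and 134 CPM in the knockout and 108, 95.1 and 93.5 CPM in the wild-type libraries (log2 fold change 0.31 ± 0.12, edgeR adjusted p = 0.793). Rrm2b, a p53-induced small subunit of ribonucleotide reductase, had 13.9, 13.2 and 17.7 CPM in the knockout and 12.6, 9.82 and 10.05 CPM in the wild-type libraries (log2 fold change 0.46 ± 0.19, edgeR adjusted p = 0.793). Of 21 genes of the E2F, Rb and cyclin E-CDK2 circuit, 0 passed, 16 were above 0 (median 0.10), and 1 (4.76%, against 5.85% of all genes in either direction) had an unadjusted p under 0.05, E2f7, a repressor E2F. In that circuit 3 genes separated with the knockout above and 1 with it below (19.05% in all, against 11.2% of all genes). E2f7 had a log2 fold change of 0.46 ± 0.16, edgeR adjusted p = 0.793. Of 22 G2 and mitosis genes, 0 passed, 20 were above 0 (median 0.21), 2 (9.09%, against 5.85% of all genes) had an unadjusted p under 0.05, Mki67 and Bub1, and 3 (13.6%, against 5.86%) separated with the knockout above. The score of the G2 and mitosis genes was 0.32, -0.18 and 0.11 in knockout replicates 1, 2 and 3 and -0.030, -0.052 and -0.17 in wild-type replicates 1, 2 and 3: knockout replicates 1 and 3 were highest, as for the 42 genes, and knockout replicate 2 was the lowest library.

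No tested marker of a cell type passed the threshold, and the share of each cell type in the pooled tumors was not measured. Epithelial genes had fold changes below 0 for 9 of 10 (median -0.26) and summed to 12237 to 16199.9 CPM in the knockout and 14924 to 18527 CPM in the wild-type libraries. All 7 fibroblast genes, 5 smooth muscle genes, 5 endothelial genes and 5 mast cell genes were above 0, with medians of 0.76, 0.65, 0.75 and 0.93. Fibroblast genes summed to 671 to 2512 CPM in the knockout and 399.9 to 1252 CPM in the wild-type libraries, and mast cell genes to 224 to 637 CPM in the knockout and 82.6 to 425 CPM in the wild-type libraries. Smooth muscle genes summed to 464 to 561 CPM in the knockout and 185 to 420.4 CPM in the wild-type libraries, and endothelial genes to 260.4 to 369.8 CPM in the knockout and 158 to 216 CPM in the wild-type libraries. The 5 macrophage genes were above 0 for 4 (median 0.19) and summed to 84.2 to 126 CPM in the knockout and 80.02 to 111 CPM in the wild-type libraries. The 5 T cell genes and 4 tested B and plasma cell genes were below 0, with medians of -0.90 and -0.81, and summed to 6.13 to 19.1 CPM in the knockout and 17.1 to 21.96 CPM in the wild-type libraries and to 252 to 744 CPM in the knockout and 909.7 to 1374 CPM in the wild-type libraries. None of the tested markers was at 0 in any library. Wnt target genes were above 0 for 8 of 8 (median 0.19). Their scores were 0.47, -0.86 and 0.53 in knockout replicates 1, 2 and 3. In wild-type replicates 1, 2 and 3 they were 0.34, -0.31 and -0.17. This order was not that of the replication scores, which were lowest in wild-type replicate 3 (-0.14) and highest in knockout replicate 1 (0.24). The part of these cell types in the fold changes of the replication genes was not tested.

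**Figure D4:**
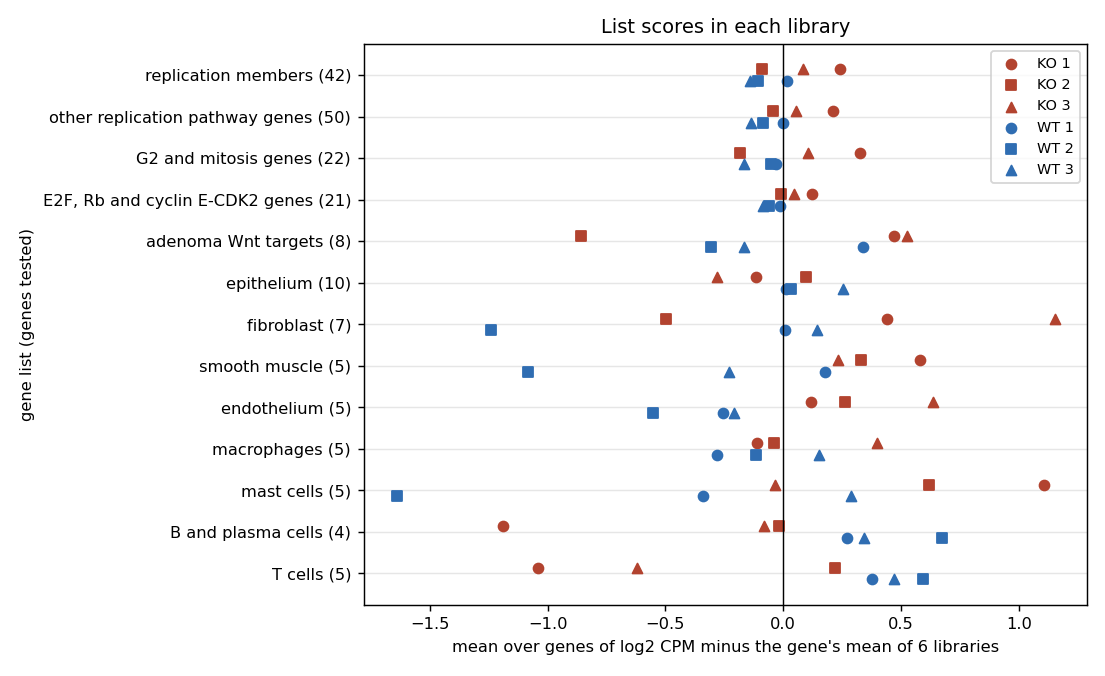
List scores of each library, the mean over a list's tested genes of log2 CPM less the gene's mean over 6 libraries, for the replication genes, other cell cycle lists and cell type markers. For the replication and mitosis lists knockout replicates 1 and 3 lie furthest right; knockout replicate 2 lies among the wild-type libraries for the first and left of them for the second.

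Levels were compared between genes per kb of the principal transcript, and then per kb of the union of all annotated exons. Pcna had the highest level over the 6 libraries, 69.7 CPM per kb, followed by Mcm6 (40.7), and Fen1 the lowest, 1.72. Fen1, Gins2, Mcm7, Rfc2, Rfc4 and Rfc5 have exons that overlap a gene on the opposite strand, so their levels are uncertain. Of the principal transcript of Fen1, 1911 of 2373 bases match Gm10143 at 100% identity. For Gins2, 2758 of 3900 bases match Gse1. Within MCM2-7, which is loaded as a ring with 1 copy of each subunit, Mcm6 at 40.7 and Mcm4 at 23.4 CPM per kb differed by a factor of 1.74. The 4 GINS subunits spanned a factor of 7.55, from Gins4 at 18.3 to Gins3 at 2.42 CPM per kb. Polymerase alpha-primase spanned 3.15-fold, from Prim1 at 16.4 to Pola1 at 5.21. Replication factor C spanned 2.36-fold, from Rfc3 at 24.0 to Rfc2 at 10.2 CPM per kb. With lengths taken as the union of all annotated exons, Pcna still had the highest level (44.1 CPM per kb), but the lowest was Orc1 (1.59), the MCM2-7 factor was 2.22 and the order within replication factor C changed (Rfc1 highest, Rfc5 lowest). On that scale Cdt1 (10.4) was above Orc6 (8.77) among the licensing genes, and Pold1 (7.22) above Prim1 (6.71) among the polymerases.

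**Figure D5:**
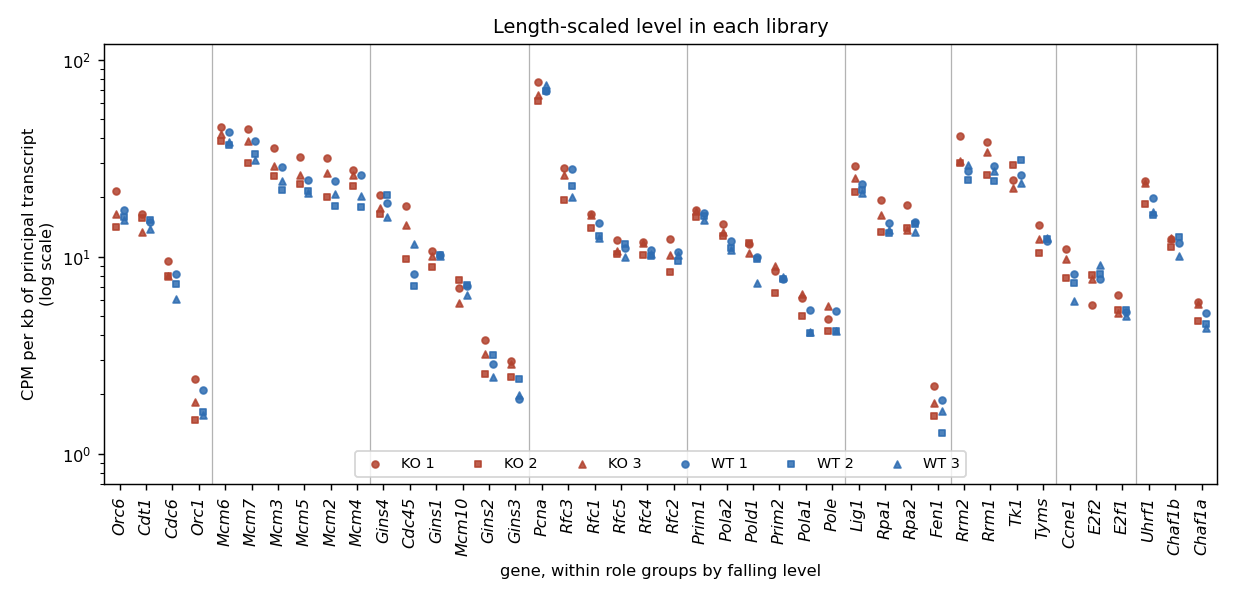
CPM per kb of principal transcript of each replication gene in each library on a log axis, ordered by level within each role group. Knockout (red) and wild-type (blue) libraries overlap for most genes, and the spread between genes exceeds the spread between libraries of 1 gene.

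For 10 of the 42 genes an exon overlaps a gene on the opposite strand that had at least 100 counts over the 6 libraries. They are Rfc2, Rfc4, Rfc5, Mcm7, Lig1, Gins2, Tk1, Cdc45, Chaf1a and Fen1. Reads of the shared exons may have been counted for either gene or for neither, and the sources used here do not say which. Of the 10, 9 had fold changes above 0 (median 0.15 on the log2 scale), and of the 32 others 27 (median 0.11). None of the 4 members whose groups did not overlap is among the 10. Of the members, 3 lie on the chromosome of Mir34a (Orc1, Rpa2 and E2f2, 41.5, 17.3 and 13.9 Mb from it), and none on that of Mir34b and Mir34c.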

How the data were processed

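RNA was sequenced from 6 adenoma pools, 3 per genotype. The authors deposited raw counts for each Ensembl gene and library. The submitters' processing notes name TopHat2 2.1.0, HTSeq 0.6.1 and mm10; strand setting, multi-read handling and annotation release: not given in the sources used here. Symbols came from GENCODE M21 (45143 of 46078 identifiers). Starts in the deposited tables count from 0, and 1 was added.

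Genes were kept by edgeR's filterByExpr, scaled by TMM and compared with edgeR 4.0.16 (quasi-likelihood test, robust, over all 17254 genes tested, Benjamini-Hochberg adjusted, threshold 0.05) in R 4.3.3; the SE is the log2 fold change over the square root of F, and intervals are at the 95% level. Groups and replicate numbers came from the sample titles. The script was tested on simulated data with 3 libraries per group. It recovered 39% of 100 genes changed by 1 on the log2 scale and 86% of 100 genes changed by 2, with 10 false calls. The changed genes were drawn from all tested genes with a mean count above 100, so these shares are not specific to the members. Smaller changes were not simulated. Per-kb levels and 3′ UTRs used GENCODE M21, promoters and microRNAs RefSeq (GRCm38.p6), and near-identical copies were found with BLAST 2.17.0 (at least 95% identity over 100 bases). Alternatives were DESeq2 1.42.0, limma-voom (limma 3.58.1), other scalings and filters, the replicate block and each library left out. The members and lists were chosen with earlier results of these data known. Values of every library are given, per role group, for the member with the smallest unadjusted p and that with the highest level per kb, for the largest fold change in each direction and for Pcna with its copies; of the other replication genes, for the 3 smallest p. Genes named beside counts of 5 or fewer, the printed promoter windows and the printed sites were chosen after their values were seen.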

Additional observations from a re-analysis of the deposited data

How the results depend on the processing

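No member passed the threshold under any alternative run. Over all genes DESeq2 called 46 higher and 64 lower, against 7 and 9 with edgeR, and leaving out 1 library gave between 3 and 10 higher and between 5 and 31 lower; the cause was not tested. The members' median log2 fold change was 0.13 and ran from 0.054 to 0.26 over the 6 fits that leave out a library. Scaling by library size alone shifted the median of all genes to 0.077 and the members' to 0.20, with 40 of 42 above 0, and turned Mcm10 (0.037), Gins1 (0.037), Gins4 (0.056) and Pcna (0.025) above 0; summing Pcna with its copies gave 0.034. Leaving out 1 library turned the sign of 17 members at least once, and their log2 fold changes ran as follows: Mcm7 -0.0049 to 0.28, Mcm10 -0.11 to 0.069, Cdt1 -0.025 to 0.13, Gins1 -0.11 to 0.034, Gins4 -0.12 to 0.068, Pcna -0.15 to 0.017, Rfc2 -0.13 to 0.15, Rfc3 -0.069 to 0.19, Rfc5 -0.057 to 0.073, Pole -0.026 to 0.21, Prim2 -0.063 to 0.17, Tyms -0.12 to 0.13, Tk1 -0.20 to 0.029, Orc1 -0.10 to 0.25, Orc6 -0.079 to 0.24, Rpa2 -0.059 to 0.17, Chaf1b -0.0083 to 0.14. The 8-base form of the seed match gave 7.14% in place of 19.05%, and the 7-base E2F core 65.7% in place of 40.0%, as the words are shorter or longer. Same-numbered libraries deviated together with correlations of 0.22, 0.27 and 0.081, and not every knockout library correlated best with its own number, so the numbers were not taken to pair mice. With the replicate block the members' median was 0.12, 4 members (9.52%, against 9.46% of all genes) had an unadjusted p under 0.05, the lowest adjusted p was 0.421 and 14 genes in all were called.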
